A study of Mus musculus with 3 samples.

Results

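The MHC class I genes and their peptide transporters were read in RNA-seq libraries of cells sorted from mouse lung. The members were the rows of the deposited count table whose gene symbol was H2-K1, H2-D1, H2-Q4, H2-Q7, H2-T22, H2-T23, H2-M3, B2m, Tap1 or Tap2, which are 10 of 48709 genes in the table. The 3 libraries form 1 group, labelled WT, of lung smooth muscle cells from mice that carry a smooth muscle actin CreERT2 transgene, which is a Cre recombinase switched on by tamoxifen, and the red fluorescent protein tdTomato. The mice were 8 weeks old at the start of tamoxifen, which they received at 75 mg/kg on each of 10 days, and lungs were digested and sorted 2 months later. There is no second group, so levels are described within and between the 3 libraries. The labels name no strain and do not tie each library to a separate animal, so that the spread between libraries may be technical.

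Class I molecules carry peptides from the cell's own proteins to its surface, where CD8 T cells and natural killer cells read them. Each consists of a heavy chain and a small invariant partner, beta-2-microglobulin. Proteasomes cut the peptides, the Tap1 and Tap2 transporter moves them into the endoplasmic reticulum, and chaperones load them. H2-K and H2-D are the classical heavy chains of the mouse, while the Q, T and M regions encode related nonclassical chains. Most nucleated cells make class I, lymphocytes and endothelium in large amounts, and interferons raise its transcription through IRF and STAT factors and the transactivator Nlrc5.

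The labelled cell type was set against its markers first. Summed levels of 10 smooth muscle genes were 196, 229 and 201 CPM (counts scaled to a library total of 1000000) in WT libraries 1, 2 and 3, and Cnn1, a calponin that marks differentiated smooth muscle, had 0, 7 and 5 counts. Other genes of the list were better detected, such as Mylk, the myosin light chain kinase, at 53.5, 71.3 and 68.5 CPM, Myh11, the smooth muscle myosin heavy chain, at 20.2, 32.2 and 20.6 CPM, and Acta2, smooth muscle actin, at 11.2, 17.1 and 11.3 CPM. The 0 of Cnn1 in library 1 allows up to 0.159 CPM, which is 3 counts, for counting error only. Summed levels of 10 genes of T, B and natural killer cells were 908, 1088 and 1195 CPM, with 10 of 10 at a mean of 10 CPM or more, against 7 of 10 in the smooth muscle list. Endothelial genes summed to 490 to 889 CPM, fibroblast genes to 417 to 1007 CPM, myeloid genes to 297 to 920.2 CPM and alveolar epithelial genes to 543 to 2313 CPM. Transcripts of several cell types were thus present, and the part of each type in the class I values was not tested. In such bulk libraries fewer cells of a type and less RNA per cell cannot be told apart. Library totals were 16877297 to 18896263 counts.

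The sequences before the start sites of class I genes carry short elements through which interferon and inflammatory signals act, and they are shown here because these genes are known to be transcribed together. RefSeq start sites on GRCm38.p6 were found for 9 of the 10 members, all except Tap2, and the 250 bases before each start were searched on both strands. The κB motif of NF-κB was searched as GGG, any base, ATT, any base and CC, in 1 run. Wider forms of κB were not searched, so a window without a match may still hold one. The other letters searched were AANNGAAA for IRF factors, TGACG for the core of a cyclic AMP response element, and CCAAT for the box bound by NF-Y. These letters were chosen after the promoters had been read, so the counts that follow are descriptions. Capitals below mark the matches, and overlap between matches was allowed. Each sequence is the 250 bases before the start site, 5′ to 3′ on the strand of the gene.
H2-K1, minus strand, chr17:34000334-34000583: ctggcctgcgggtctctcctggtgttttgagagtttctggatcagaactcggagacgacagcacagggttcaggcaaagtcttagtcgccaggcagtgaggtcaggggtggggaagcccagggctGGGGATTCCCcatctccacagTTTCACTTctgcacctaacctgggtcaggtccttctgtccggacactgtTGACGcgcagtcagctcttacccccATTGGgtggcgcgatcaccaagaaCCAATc
H2-D1, plus strand, chr17:35262844-35263093: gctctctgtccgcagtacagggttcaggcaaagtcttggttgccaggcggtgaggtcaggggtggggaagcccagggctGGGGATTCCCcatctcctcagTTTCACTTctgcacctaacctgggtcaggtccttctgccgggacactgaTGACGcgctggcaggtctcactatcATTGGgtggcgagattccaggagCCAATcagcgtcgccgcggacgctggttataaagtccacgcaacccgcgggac
H2-Q7, plus strand, chr17:35438905-35439154: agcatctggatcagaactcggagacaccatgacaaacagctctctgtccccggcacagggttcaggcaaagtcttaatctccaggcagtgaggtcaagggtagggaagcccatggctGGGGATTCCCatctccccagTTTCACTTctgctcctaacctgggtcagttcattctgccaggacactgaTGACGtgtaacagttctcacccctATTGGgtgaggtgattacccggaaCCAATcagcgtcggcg
B2m, plus strand, chr2:122147437-122147686: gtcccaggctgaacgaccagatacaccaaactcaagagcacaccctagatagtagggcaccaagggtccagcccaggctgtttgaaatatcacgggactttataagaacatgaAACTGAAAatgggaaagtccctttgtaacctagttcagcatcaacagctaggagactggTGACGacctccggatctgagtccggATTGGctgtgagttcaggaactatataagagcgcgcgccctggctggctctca
Tap1, plus strand, chr17:34187306-34187555: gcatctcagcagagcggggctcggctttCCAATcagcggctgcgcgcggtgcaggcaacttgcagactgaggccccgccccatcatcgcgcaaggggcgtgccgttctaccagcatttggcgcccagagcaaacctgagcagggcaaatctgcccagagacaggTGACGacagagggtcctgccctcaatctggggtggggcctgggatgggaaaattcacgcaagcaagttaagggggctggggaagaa

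Matches to all 4 motifs were found before H2-K1, H2-D1, H2-Q4 and H2-Q7. Among 32851 start sites of all genes only 6 (0.018%) had all of them, namely both start sites listed for H2-K1, 1 each of H2-D1, H2-Q4 and H2-Q7, and 1 of Gm19582, a gene on chromosome 1. The κB match alone was in 4 of 9 members and in 0.615% of all start sites. From the first base of the κB match to that of the IRF match there were 21 bases in H2-K1, H2-D1 and H2-Q4 and 20 in H2-Q7. From the κB match to the nearer CCAAT box there were 95 bases in H2-K1, H2-D1 and H2-Q4 and 93 in H2-Q7. The TGACG core lay 70 bases after the κB match in H2-K1 and H2-D1 and 69 in H2-Q7, whereas that of H2-Q4 lay 101 bases after it. H2-Q6, which is not a member, had a κB match at -173 and an IRF match at -152 from its start site. It also had CCAAT boxes but no TGACG core. The printed windows of H2-K1, H2-D1 and H2-Q7 are alike well beyond the motifs, so their matches are not independent of each other.

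The IRF letters were in 8 of 9 members, against 21.3% of all start sites, and were not in the Tap1 window. The TGACG core was in 8 of 9 members, all but H2-T23, against 17.8% of all start sites, and the CCAAT box in 9 of 9, against 33.9%. Tap1 starts 226 bases from Psmb9, which encodes an immunoproteasome subunit on the opposite strand, so both windows cover largely the same bases.

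**Figure D1:**
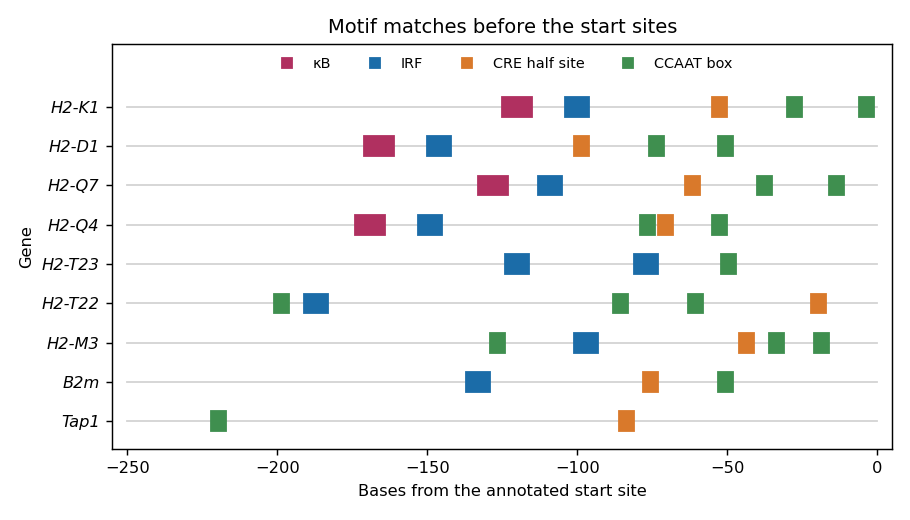
Motif matches in the 250 bases before the annotated start site of 9 members, in bases from the start site, with 1 line per gene and a box for each match. H2-K1, H2-D1, H2-Q7 and H2-Q4 share a κB match followed 20 or 21 bases later by an IRF match. The other 5 genes have no match to the letters searched for κB.

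The classical heavy chains were among the abundant transcripts. H2-K1 (ENSMUSG00000061232, chromosome 17, 33996017 to 34000333) had 999, 1038 and 1141 CPM in WT libraries 1, 2 and 3, with a mean of 1059 ± 73.3 CPM (SD, n = 3). H2-D1 (ENSMUSG00000073411, chromosome 17, 35262730 to 35267499) had 1020.3, 1008 and 1109 CPM, with a mean of 1046 ± 55.4 CPM. On library totals library 3 was the highest for both genes, while with TMM scaling, a correction for library composition, library 1 was the highest for H2-D1. The values of the 2 genes overlapped. Coordinates are those of the deposited table, and those of 9 of the 10 members were identical to the GRCm38 annotation of GENCODE M21.

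Among the nonclassical members H2-Q7 had the highest CPM. H2-Q7 (ENSMUSG00000060550, chromosome 17, 35439155 to 35443773), a gene of the Qa-2 antigens, had 660.4, 593 and 758 CPM in libraries 1, 2 and 3. H2-Q4 (ENSMUSG00000035929, chromosome 17, 35379617 to 35385290), a neighbour in the Q region, had 172, 201 and 255 CPM. Both were highest in library 3, and their values did not overlap. H2-T23 (ENSMUSG00000067212, chromosome 17, 36029773 to 36032855) encodes Qa-1, which presents leader peptides of other class I chains to the receptor made of Klrd1 and Klrc1. It had 139, 156 and 149.6 CPM, and library 2 was its highest.

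H2-T22 (ENSMUSG00000056116, chromosome 17, 36037128 to 36042747), whose product is bound by some γδ T cell receptors, had 106, 107 and 118 CPM. H2-M3 (ENSMUSG00000016206, chromosome 17, 37270220 to 37274484), which presents peptides that begin with N-formylmethionine, was the lowest heavy-chain member at 22.4, 20.4 and 24.2 CPM. Its 424, 374 and 409 counts gave 95% Wilson intervals that overlapped and lay between 18.4 and 26.7 CPM, for counting error only.

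B2m (ENSMUSG00000060802, chromosome 2, 122147686 to 122153083), the invariant light chain and the only member outside chromosome 17, had 977, 956 and 999 CPM. Its mean was 977 ± 21.3 CPM, a coefficient of variation of 2.18%, the smallest of the 10 members on library totals. With TMM scaling B2m was not the steadiest. It then had 1027, 973 and 933 CPM, against 1051, 1056 and 1066 CPM for H2-K1.

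The transporter subunits lay below the classical heavy chains in each library. Tap1 (ENSMUSG00000037321, chromosome 17, 34187553 to 34197225) had 116, 106 and 119 CPM, and Tap2 (ENSMUSG00000024339, chromosome 17, 34203527 to 34216321) had 47.8, 37.6 and 41.7 CPM. Tap1 lay above Tap2 in each of the 3 libraries, and library 2 was the lowest for both. Their products work as a heterodimer of 1 Tap1 and 1 Tap2 chain. In all, the 10 members took 0.426%, 0.422% and 0.471% of the counts in libraries 1, 2 and 3, with 95% Wilson intervals of 0.423% to 0.429%, 0.419% to 0.425% and 0.468% to 0.475%, for counting error only. Of the counts of nuclear protein-coding genes they took 0.749%, 0.718% and 0.749%, a mean of 0.739% ± 0.0175 (SD, n = 3), so that on this total library 3 was level with library 1.

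**Figure D2:**
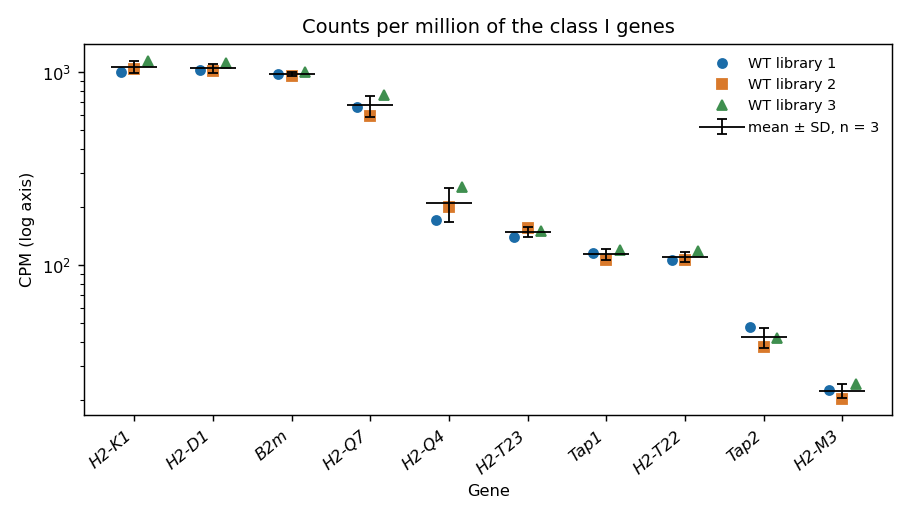
CPM of each member on a log axis, with 1 symbol per WT library and the mean ± SD of 3 libraries. H2-K1, H2-D1 and B2m lie between 956 and 1141 CPM, and H2-M3 is lowest at 20.4 to 24.2 CPM.

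Levels of different genes were compared per kilobase of exon, since longer transcripts give more fragments. B2m, with 860 exon bases, was then the highest member at 1136 ± 24.8 CPM per kilobase, and it ranked 8 among nuclear protein-coding genes. H2-D1 followed at 406 ± 21.5 and H2-K1 at 361 ± 24.9 CPM per kilobase. Below them came H2-Q7 at 157 ± 19.4, H2-Q4 at 80.6 ± 16.3, H2-T23 at 51.3 ± 2.90 and H2-T22 at 32.3 ± 2.04 CPM per kilobase (SD, n = 3 each). Tap1 had 20.7 ± 1.29, H2-M3 15.5 ± 1.34 and Tap2 11.2 ± 1.36 CPM per kilobase. No neighbours in this order overlapped, and each pair kept its order in the 3 libraries.

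The order depended in part on which transcripts define the length. With the basic transcript set, in which H2-Q7 has 1536 exon bases in place of 4265 and H2-K1 1655 in place of 2938, B2m was again highest and Tap2 lowest. H2-K1 then exceeded H2-D1, at 640.03 ± 44.3 against 498 ± 26.4 CPM per kilobase. H2-Q7 had 436 ± 54.0 CPM per kilobase, with a range that overlapped that of H2-D1, and H2-Q4 at 117 ± 23.6 overlapped H2-T23 at 101 ± 5.70. Which of H2-K1 and H2-D1 was higher could therefore not be settled. Their log2 ratio was -0.17 ± 0.041 on CPM per kilobase with all transcripts, 0.36 ± 0.041 with the basic set and 0.02 ± 0.041 on CPM.

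**Figure D3:**
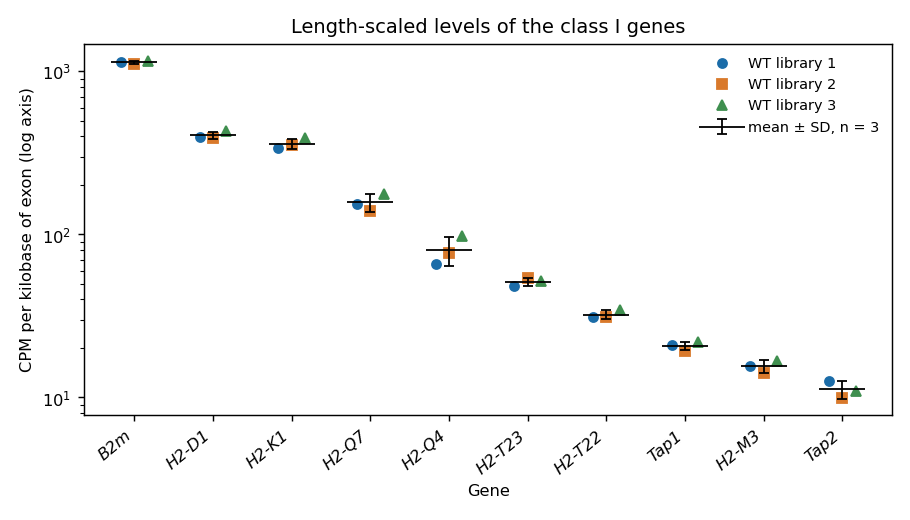
Levels per kilobase of exon, over all annotated transcripts, of each member on a log axis, with 1 symbol per WT library and the mean ± SD of 3 libraries. B2m is highest at 1136 CPM per kilobase and Tap2 lowest at 11.2.

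Heavy chains and B2m pair in equal numbers in the protein, and their transcripts were compared in the same libraries. Only members were summed, which sets a part of the heavy chains against all of B2m. H2-Q6, for one, is left out and had 244 ± 36.2 CPM per kilobase. The 7 heavy-chain members summed to 1052, 1060 and 1198 CPM per kilobase, against 1136, 1112 and 1161 CPM per kilobase for B2m. The log2 ratio was -0.04 ± 0.081 (SD, n = 3), below 0 in libraries 1 and 2 and above 0 in library 3. With the basic transcript set the heavy chains summed to 1784, 1784 and 2037 CPM per kilobase, and the log2 ratio was 0.71 ± 0.084, above 0 in each of the 3 libraries. On CPM, which is not corrected for length, it was 1.74 ± 0.083. No ratio was tested, because the smallest two-sided p that flipping the signs of 3 libraries in an exact permutation test allows is 0.25.

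Within the heavy-chain members the classical pair exceeded the sum of the 5 others. The log2 ratio of the sums was 1.19 ± 0.069 per kilobase, 0.64 ± 0.069 with the basic set and 0.86 ± 0.071 on CPM, above 0 in each of the 3 libraries on each scale. The classical pair had 2105 ± 126 CPM and the 5 others 1160 ± 126 CPM. Outside these sums, 20 other class I and class I-like genes had 1109 ± 141 CPM together. The excess therefore holds for the members only. Tap1 exceeded Tap2 by a log2 ratio of 0.89 ± 0.13 per kilobase, 1.57 ± 0.12 with the basic set and 1.41 ± 0.13 on CPM. Tapbp, which encodes tapasin and bridges class I molecules to the transporter, had 121 ± 6.86 CPM and exceeded Tap1 by a log2 ratio, Tap1 to Tapbp, of -0.69 ± 0.17 per kilobase. This last ratio was -0.12 ± 0.16 with the basic set and -0.10 ± 0.17 on CPM, within its SD of 0.

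**Figure D4:**
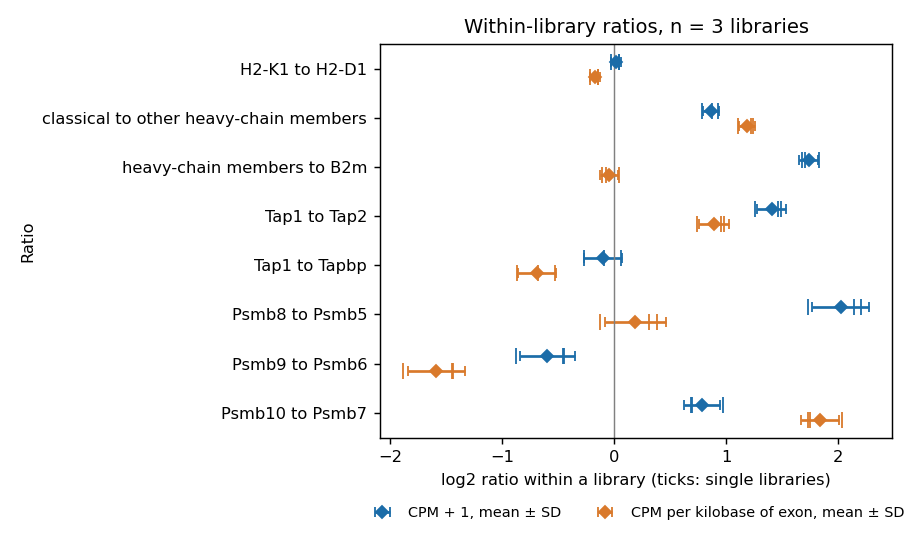
Within-library log2 ratios of the members and of proteasome subunits, on CPM + 1 and on CPM per kilobase of exon over all transcripts, as the mean ± SD of 3 libraries with a tick for each library. The ratio of the heavy-chain members to B2m is 1.74 on CPM and -0.04 per kilobase.

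Reads from class I genes are hard to assign, because the heavy chains share sequence. The share of a gene's 50-base words that also occur in transcripts of other genes was 53.5% for H2-T22, of which 31.2% of its words were in H2-T10 and 26.5% in the antisense transcript A930015D03Rik. It was 36.4% for H2-Q4, including 15.3% in the antisense gene Gm11131, and 26.5% for H2-Q7, including 14.03% in H2-Q10. H2-T23, H2-D1 and H2-K1 followed at 14.5%, 12.8% and 9.63%. Tap2 had 11.6%, and Tap1 had 3.33%, of which 2.88% of its words were in Psmb9, a gene it overlaps by 212 bases. H2-M3 had 0.576%, and B2m shared no such word.

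The sources used here do not give how reads that fit several genes were counted, and levels of single heavy chains are uncertain to that extent. Overlapping genes were counted as well. Psmb9, which overlaps Tap1, had 379, 324 and 402 counts against 2183, 1940 and 2015 for Tap1. Gm11131, antisense to H2-Q4, had 122, 161 and 153 counts against 3247, 3685 and 4307 for H2-Q4, and without a stated strand setting reads of the pair cannot be told apart. Patl2, whose span covers B2m, had 3, 0 and 0 counts. H2-Q6, another gene of the Q region that is not a member, had 0.759 ± 0.0189 of the counts of H2-Q7, and of its words 13.9% are in H2-Q7. Class I genes also differ between strains of mice, and reads of other alleles may align differently to the reference.

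The libraries were then compared gene by gene. By a chi-square test of homogeneity given TMM-scaled library sizes, with Benjamini-Hochberg adjustment over all genes tested, 7 of the 10 members differed between libraries beyond counting error. The same was true of 70.0% of 23317 genes tested, and of 79.0% of the 7883 nuclear protein-coding genes at a mean of 10 CPM or more. The 7 were H2-D1, B2m, H2-Q7, H2-Q4, H2-T23, Tap1 and Tap2, and a share near that of all genes says nothing particular about them. H2-K1, H2-T22 and H2-M3 had adjusted p of 0.430, 0.763 and 0.214 in this chi-square test.

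In size the differences on library totals ran from a highest-to-lowest ratio of 1.04 for B2m to 1.49 for H2-Q4. With TMM scaling the range of log2(CPM + 1) was smallest for H2-K1, at 0.020, and largest for H2-Q4, at 0.397. For B2m it was 0.139. On library totals the median coefficient of variation was 6.62% over the 10 members. It was 13.7% over the 7883 genes and 9.75% over the 1296 genes at a mean of 100 CPM or more. H2-Q4 had the largest, 20.2%, followed by H2-Q7 at 12.4% and Tap2 at 12.1%, and the other 7 were under 10%. H2-Q4 and H2-Q7 are also among the members that share most sequence, at 36.4% and 26.5% of their words. H2-T22, which shares most at 53.5%, had a coefficient of variation of 6.32%, and Tap2 shares 11.6%. The part of shared reads in the spread was not tested.

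Leaving out 1 library changed which members were called. Without WT library 1, 4 members were called, B2m, H2-Q7, H2-Q4 and H2-T23, and 38.2% of all genes tested. Without library 2, 6 were called, with H2-K1 added at an adjusted p of 0.0471 in the chi-square test and H2-Q7 and H2-T23 lost at 0.0516 and 0.226. The share of all genes tested that was called was 53.4% without library 2. Without library 3, 7 members and 56.8% of all genes tested were called. The calls of H2-D1, Tap1 and Tap2 were lost without library 1, where each of them had its highest TMM-scaled level.

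On library totals 8 of the 10 members were highest in library 3, but this depended on the scaling. With TMM factors, which were 0.951, 0.983 and 1.07 in libraries 1, 2 and 3, the highest library was 1 for 6 members, 2 for 1 and 3 for 3. H2-K1 then had 1051, 1056 and 1066 TMM-scaled CPM, H2-D1 had 1073, 1026 and 1036, and B2m had 1027, 973 and 933. With TMM factors H2-Q4 was still lowest in library 1 and highest in library 3, at 181, 204 and 238 TMM-scaled CPM.

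Sums of several cell type markers had wider ranges than the class I sum. Alveolar epithelial genes summed to 2313, 543 and 653 CPM in libraries 1, 2 and 3 and myeloid genes to 920.2, 297 and 406 CPM, so that the highest was 4.26 and 3.10 times the lowest. Sftpc, a surfactant protein, at 1352, 246 and 284 CPM and Lyz2, a lysozyme, at 704, 189 and 235 CPM carried much of these sums. Other genes of the same lists were lowest in library 1 on library totals. Among them were Itgam, an integrin, at 18.9, 25.9 and 37.2 CPM and Abca3, a lipid transporter of surfactant, at 44.9, 49.0 and 50.4 CPM. Abca3 did not differ beyond counting error, at an adjusted p of 0.447 in the chi-square test. Endothelial genes differed 1.82-fold and fibroblast genes 2.41-fold. The heavy-chain members together had 3119, 3122 and 3555 CPM, a pattern in which libraries 1 and 2 were nearly equal. The 7 class II genes, which belong to B cells and other antigen-presenting cells, summed to 1460.1, 2035 and 2449 CPM, a range of 1.68-fold with library 1 lowest. The lymphocyte list was mixed, with the B cell gene Cd79a at 114, 172 and 233 CPM and the T cell receptor component Cd3e at 153, 147 and 98.1 CPM.

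**Figure D5:**
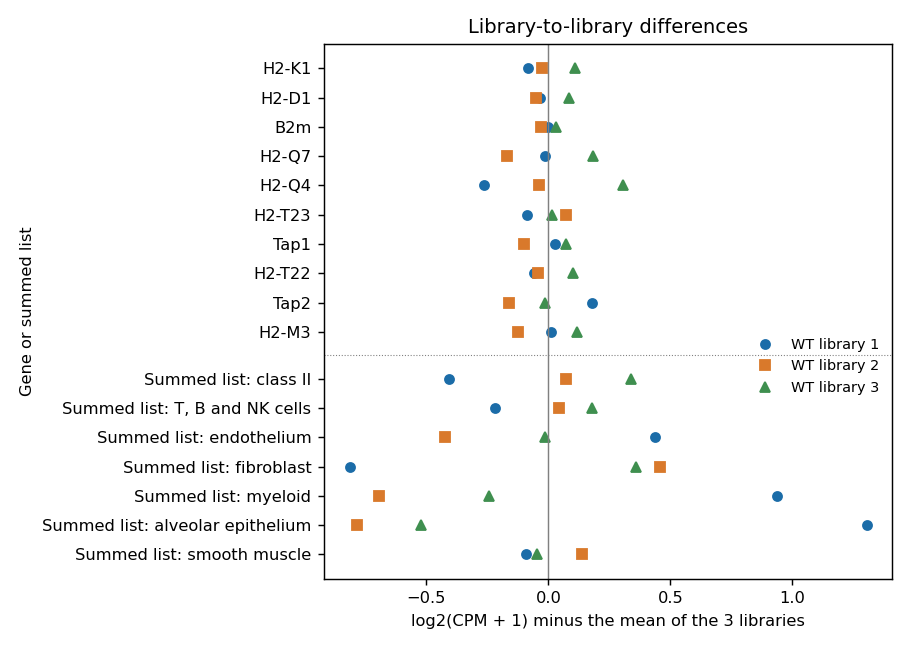
Each member's log2(CPM + 1) in 3 WT libraries minus its mean, and the same for summed lists of class II genes and cell type markers below the dotted line. The largest deviation of a member is 0.30, for H2-Q4 in library 3, while the alveolar epithelial and myeloid sums move most.

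The genes with the library pattern most like that of the members were named, as the smallest root mean square difference of centred log2(CPM + 1) over 3 libraries among 7873 nuclear protein-coding genes at a mean of 10 CPM or more. They were the lysosome-positioning GTPase Arl8a, the zinc finger gene Zfp512, the nucleolar protein gene Nol7, the acid sphingomyelinase Smpd1 and the ribosome-associated chaperone Dnajc2, at differences of 0.00218 to 0.00404. Arl8a had 24.8, 24.2 and 27.3 CPM. With so few libraries many genes lie close, and 555 of the 7873 were nearer to the mean profile than the median member, whose difference was 0.0454.

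The wider pathway was transcribed as well. All 10 members had a mean of 10 CPM or more, and so had 58 of 73 other genes listed with the class I pathway, against 35.8% of 22005 nuclear protein-coding genes. The 7 class II genes listed for comparison also did. The median of the members was 7.46 ± 0.17 log2(CPM + 1), against 2.00 ± 0.081 over those 22005 genes. In the list of peptide supply and loading 16 of 16 genes reached 10 CPM, with a median of 5.85 ± 0.036. It was led by the chaperone Hspa5 at 570.1 ± 121 CPM, the chaperone calreticulin, Calr, at 561 ± 92.0 CPM and calnexin, Canx, at 240.2 ± 4.62 CPM. Its lowest gene was the proteasome subunit Psmb7 at 12.8 ± 2.42 CPM.

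Immunoproteasome subunits replace the constitutive catalytic subunits under interferon and in lymphocytes. Psmb10 exceeded its counterpart Psmb7 by a log2 ratio of 1.84 ± 0.17 per kilobase, 0.61 ± 0.16 with the basic set and 0.79 ± 0.16 on CPM. Psmb9 lay below Psmb6, at -1.59 ± 0.26, -1.32 ± 0.24 and -0.60 ± 0.25 on the same scales. Both differences had 1 sign in the 3 libraries on each scale. The ratios per kilobase over all transcripts have no pseudocount, whereas the other scales have a pseudocount of 1. With that pseudocount they were 1.596 for Psmb10 to Psmb7 and -1.43 for Psmb9 to Psmb6. Psmb8 to Psmb5 was 0.19 ± 0.27 per kilobase, 1.19 ± 0.26 with the basic set and 2.03 ± 0.25 on CPM, and 54.1% of the words of Psmb5 occur in other genes, so this ratio is uncertain.

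Regulators of class I genes were detected in full, 16 of 16 at a mean of 1 CPM or more and 15 at 10 or more, with a median of 5.87 ± 0.033 log2(CPM + 1). Nfkb1, a subunit of NF-κB, had 177 ± 12.9 CPM, Nlrc5, the class I transactivator, had 176 ± 15.5 CPM and Irf1, an interferon response factor, 155 ± 19.5 CPM. The lowest was Rfxank, a subunit of the RFX complex, at 8.26 ± 2.30 CPM. Of the interferon genes 8 of 9 reached 10 CPM, led by the kinase Jak1 at 713 ± 51.6 CPM, the interferon gamma receptor Ifngr1 at 270.4 ± 8.33 CPM and the kinase Jak2 at 125 ± 16.0 CPM. Ifng, the cytokine of T and natural killer cells, had 11.2, 11.2 and 18.2 CPM. Ifnb1 had no count in any library, and 3 counts in library 3, the least deep, come to 0.178 CPM.

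Other class I genes were uneven. Of the 20 genes matched, 10 reached 10 CPM, with a median of 3.38 ± 0.050 log2(CPM + 1). H2-Q6 led at 509 ± 75.5 CPM, followed by H2-Q5, a gene classed as a polymorphic pseudogene, at 186 ± 33.9 CPM and H2-Q1 at 126 ± 6.83 CPM. Per kilobase over all transcripts H2-Q6 had 244 ± 36.2 CPM, above the 157 ± 19.4 of the member H2-Q7. H2-M1, H2-M9 and H2-M10.1 had no count in any library. Receptors listed beside class I, not all of which bind class I itself, were present too, with 9 of 12 genes at 10 CPM or more. They were led by the CD8 chains Cd8b1 at 96.5, 120.02 and 60.2 CPM and Cd8a at 103, 75.5 and 62.0 CPM, and by the activating receptor Klrk1 at 58.2, 54.9 and 88.2 CPM. The CD8 chains were lowest in library 3, where Klrk1 was highest. The lowest was Pilrb1, an activating receptor of the immunoglobulin-like family, at 2.57 ± 1.35 CPM.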

How the data were processed

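RNA was measured in 3 WT libraries of cells sorted from mouse lung. Per the labels' protocols, total RNA was extracted with a miRNeasy micro kit with DNase and made into libraries with a stranded SMARTer kit. The authors' deposited table gives raw read counts per mouse Ensembl gene. The tools named, per the submitters' processing notes, are DESeq2 1.18.1, featureCounts 1.6.3 (Subread), STAR 2.6.1d, Trimmomatic 0.38 and FastQC, and the builds are hg38 and GRCh38, which are human, while the gene IDs are mouse. The sources used here give neither the strand setting nor the treatment of multiply mapped reads. The columns, named as controls 1 to 3, were assigned to WT libraries 1 to 3 by number.

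Counts were divided by library totals (CPM). Exon length was the union of a gene's exons in GENCODE M21 (GRCm38), over all transcripts or the basic set. CPM per kilobase was chosen as the level per length after seeing the data, in place of counts per kilobase scaled to 1000000. Protein identity between heavy chains was not analysed here. Log2 values have a pseudocount of 1, except ratios per kilobase over all transcripts, which have none. Variation between libraries was tested for genes with at least 10 counts by chi-square with TMM factors of edgeR 4.0.16 in R 4.3.3, called at an adjusted p below 0.05, and the test was checked on simulated data. DESeq2 1.42.0 gave alternative size factors. Other steps used Python 3.11.15 with SciPy 1.17.1. Of 82 pathway symbols, class II included, 80 matched, all but H2-Q8 and H2-Q9. Members, lists and rules were chosen with earlier results of these data known. The rule names all members, the 3 highest and the lowest gene of each pathway list, the genes of the ratios and the 5 genes nearest in pattern; other genes were named after their values were seen. Class II genes are given as a sum.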

Additional observations from a re-analysis of the deposited data

How the results depend on the processing

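Leaving out WT libraries 1, 2 or 3 in turn, the median level of the members was 7.38 to 7.55 log2(CPM + 1). The log2 ratios on CPM were 0.0050 to 0.041 for H2-K1 to H2-D1, 0.83 to 0.90 for classical to other heavy chains, 1.69 to 1.77 for heavy chains to B2m, 1.36 to 1.48 for Tap1 to Tap2, -0.18 to -0.011 for Tap1 to Tapbp, 1.94 to 2.17 for Psmb8 to Psmb5, -0.67 to -0.46 for Psmb9 to Psmb6 and 0.69 to 0.83 for Psmb10 to Psmb7. Members called were 4 to 7, genes of the table called 8275 to 12273, against 16333 with 3 libraries, and pathway genes at 10 CPM, class II included, 62 to 65 of 80; with 2 libraries the test has fewer counts. Scaled to nuclear protein-coding counts, the median level was 8.20. Length was the choice that moved most. With counts per kilobase scaled to a total of 1000000, of which genes under 200 exon bases held 74.3% to 83.0%, the median was 4.66, and with CPM per kilobase, added after seeing the data, 6.02, or 6.76 with the basic transcript set. In the same order, with a pseudocount of 1, the ratios were -0.17, -0.17 and 0.36 for H2-K1 to H2-D1, 1.182, 1.19 and 0.64 for classical to other heavy chains, 0.76, 0.84 and 1.57 for Tap1 to Tap2, 0.16, 0.18 and 1.19 for Psmb8 to Psmb5, -1.23, -1.43 and -1.32 for Psmb9 to Psmb6 and 1.33, 1.596 and 0.61 for Psmb10 to Psmb7. That of heavy chains to B2m was 1.74 on CPM and changed sign to -0.045 and -0.045, within its SD of 0, and was 0.71 with the basic set. Tap1 to Tapbp was -0.63 and -0.67, and with the basic set -0.12. A pseudocount of 0.1 and TMM factors moved no median or ratio by more than its SD. With library totals alone 9 members and 72.1% of all genes tested were called. With DESeq2 size factors, no filter on low counts or at least 100 counts 7 members were called each, and 70.1%, 53.3% and 75.2% of genes. No paired analysis was possible because there is only 1 group.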
